A study of Rattus norvegicus with 24 samples.

Results

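The constitutive androstane receptor CAR (gene Nr1i3), the pregnane X receptor PXR (Nr1i2), their DNA-binding partner Rxra, the P450 electron donor Por and the Cyp2b and Cyp3a enzymes were followed in 4 tissues of Sprague-Dawley rats at 7 months of age. The members were the entries of the deposited gene count table whose symbol equals one of 10 listed symbols, ignoring case. Of these symbols, 9 were found, and they name 10 of the 32883 entries, because Cyp3a9 stands for 2 entries and Cyp2b1 for none. The labels give the exposed animals as SAM-exposed and the controls as Sham-exposed, while the series title speaks of PCB (polychlorinated biphenyl) exposure. The abbreviation SAM is not spelled out, and dose, route, duration, sex and sequencing batch are not given. Each group held 3 libraries of polyadenylated RNA. SAM libraries came from animals 1, 2 and 3 in liver and brain and from animals 1, 3 and 5 in thymus and spleen. Sham libraries came from animals 13, 14 and 15 in liver, 13, 15 and 16 in brain, and 14, 15 and 17 in thymus and spleen. The labels do not state whether a number stands for the same rat in each tissue, nor whether animals were pooled, so p-values measure the spread between these libraries only.

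CAR and PXR are nuclear receptors that sense foreign chemicals and endogenous steroids and bile acids. Each binds DNA as a heterodimer with RXRα and switches on enzymes and transporters of drug clearance in hepatocytes, with Cyp2b genes as the textbook targets of CAR and Cyp3a genes as those of PXR. Non-planar PCBs are known activators of both receptors in rodents, whereas dioxin-like PCBs act through the aryl hydrocarbon receptor AhR and Cyp1a genes.

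Liver libraries totalled 13.9 to 18.4 M (mega) counts, those of brain 12.9 to 19.6 M, thymus 15.5 to 19.6 M and spleen 13.3 to 20.1 M. On these raw library totals, before any scaling between libraries, a level of 1 CPM (counts-per-million) stood for 12.9 to 20.1 counts. The liver library of SAM animal 1 stood apart from the other 5. Mitochondrially encoded genes held 18% of its counts, against 5.77 to 8.18% in the others. Of the 12130 liver genes tested, 926 lay more than 2-fold below the lowest other library, against 3 to 21 genes for any other liver library. On the upper side, 437 genes lay more than 2-fold above the highest other library, against 1 to 60 genes for any other liver library. Log2 fold changes of named liver genes and list medians that moved by over 1.5 times or changed sign without it are therefore also given without it. Tissue labels fitted their marker genes: the 6 hepatocyte markers summed to between 127000 and 159000 CPM in SAM livers and between 131000 and 143000 in Sham livers, against at most 68.8 CPM in any library of the other tissues. Neuron and glia markers were higher in brain than in any library of the other tissues (5 markers, 7470 to 8710 CPM in SAM and 9570 to 10800 in Sham), as were thymocyte markers in thymus (6 markers, 7860 to 8930 in SAM and 7400 to 8300 in Sham) and B cell markers in spleen (4 markers, 1960 to 2330 in SAM and 2080 to 2490 in Sham).

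In liver, the receptor transcripts of SAM and Sham animals lay in the same range. Cyp2b2 and a second inducible Cyp2b entry were higher on average in SAM animals, and the Cyp3a entries lower, but none by more than the libraries varied. No member passed the test between SAM and Sham animals (edgeR quasi-likelihood, Benjamini-Hochberg adjusted p under 0.05 over all genes tested), and neither did any other gene: 0 of 12130, a background of 0%, with 327 genes at an unadjusted p under 0.05. All 10 member entries passed the filter on low counts in liver, and for each of them the SAM and Sham libraries overlapped. Over all liver genes tested, every SAM library lay above every Sham library for 5.19%, and every one below for 5.63%. Fold changes are log2 of SAM over Sham with their standard error (SE), and CPM are scaled by the trimmed mean of M values (TMM) within the tissue, given as mean ± SD of 3 libraries.

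**Figure D1:**
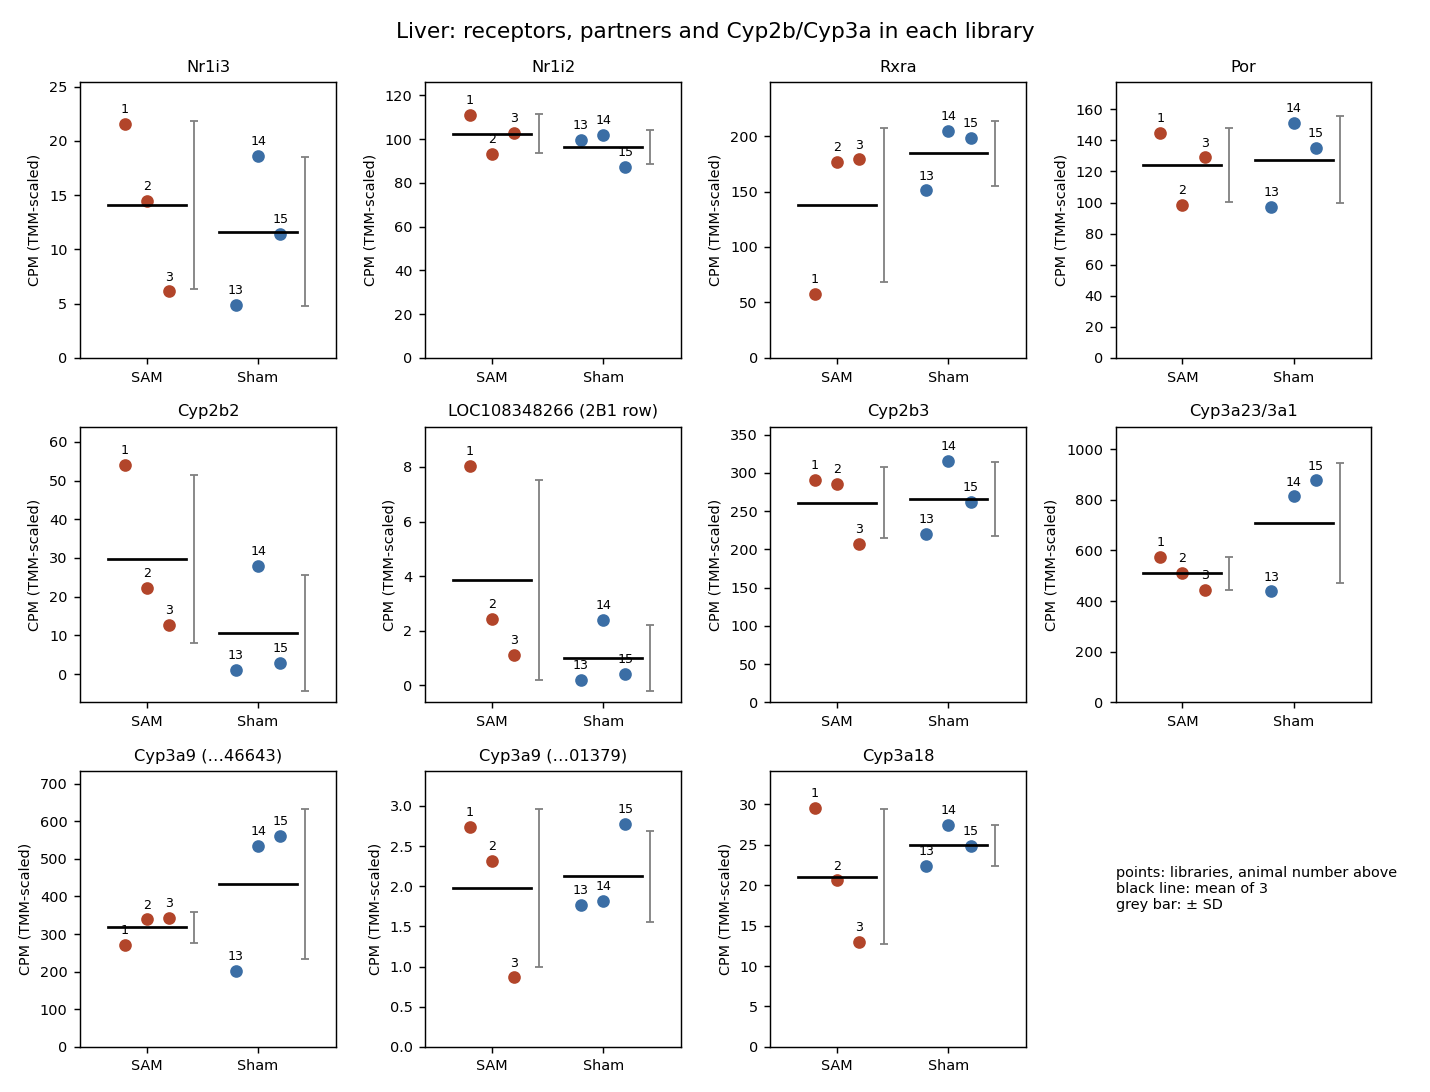
Level of each entry in the 6 liver libraries, in TMM-scaled CPM on axes of their own; points are libraries with the animal number above, the black line is the mean of 3 and the grey bar ± SD. SAM and Sham points overlap in every panel; Cyp2b2 and the 2B1 entry LOC108348266 show 1 high Sham library, animal 14, beside 2 low ones.

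Nr1i3 (ENSRNOG00000003260), which encodes CAR, had 21.6, 14.5 and 6.12 CPM in the livers of SAM animals 1, 2 and 3, against 4.86, 18.6 and 11.4 CPM in those of Sham animals 13, 14 and 15. The lowest and the highest library of each group differed 3.54-fold in SAM and 3.82-fold in Sham, so both groups covered nearly the same span. The means were 14.1 ± 7.77 CPM in SAM and 11.6 ± 6.87 CPM in Sham, with a log2 fold change of 0.27 ± 0.55 and a 95% interval of -1.02 to 1.55 (edgeR adjusted p = 0.888). It was -0.17 without SAM 1 and -0.10 without Sham 13, so the sign rested on single libraries. Nr1i3 was among the more variable liver genes: 0.824% of the genes tested had a larger SD of log2 CPM among the Sham livers.

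Nr1i2 (ENSRNOG00000002906), which encodes PXR, had the smallest SD of log2 CPM of the members in both groups. Its libraries held 111, 93.3 and 103 CPM in SAM animals 1, 2 and 3, against 99.7, 102 and 87.4 CPM in Sham animals 13, 14 and 15. The means of 103 ± 8.87 CPM in SAM and 96.3 ± 7.72 CPM in Sham gave a log2 fold change of 0.09 ± 0.15 with an interval of -0.25 to 0.43 (edgeR adjusted p = 0.855). It was 0.03 without SAM 1. On raw library totals, which moved the median of all liver genes to -0.12, the value was -0.06.

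Rxra (ENSRNOG00000009446), the heterodimer partner of both receptors and of many others, stood at 58, 177 and 179 CPM in SAM animals 1, 2 and 3 and at 151, 205 and 198 CPM in Sham animals 13, 14 and 15. SAM 1, the library with 18% mitochondrial counts, was the low one, while the other SAM livers lay between Sham 13 and Sham 15. The log2 fold change of -0.42 ± 0.40 (interval -1.34 to 0.50, edgeR adjusted p = 0.804) was -0.05 without SAM 1. Por (ENSRNOG00000001442), the reductase that passes electrons from NADPH to microsomal P450 enzymes, had 145, 98.3 and 129 CPM in SAM and 96.9, 151 and 135 CPM in Sham, in the same order of animals. Sham 13 was the lowest and Sham 14 the highest of the 6, so the SAM livers lay within the Sham range. Its log2 fold change was -0.04 ± 0.22, with an interval of -0.56 to 0.47 (edgeR adjusted p = 0.955), and it was -0.17 without SAM 1.

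Among the Cyp2b enzymes, Cyp2b1 and Cyp2b2 are the phenobarbital-inducible pair of the rat, while Cyp2b3 is known as a form that phenobarbital does not induce. No entry carries the symbol Cyp2b1, but the entry LOC108348266 (ENSRNOG00000033680) is described in the table as cytochrome P450 2B1 and carries the RefSeq transcript that RefSeq assigns to Cyp2b1. It is shown beside the members as the 2B1 entry. How the authors' counting treated near-identical copies is not known, and reads may be split between the pair. Their transcripts were not compared, so how far reads can be told apart was not tested. The start windows of RefSeq (build GRCr8, both on the + strand) run from 250 bases before to 50 after the start used for each window. Those starts lie inside the RefSeq gene bounds, which begin at 90646098 for Cyp2b1 and 90722243 for Cyp2b2. The windows, Cyp2b1 at chr1:90645869-90646168 and Cyp2b2 at chr1:90722031-90722330, are printed with the differing bases in capitals.
Cyp2b1: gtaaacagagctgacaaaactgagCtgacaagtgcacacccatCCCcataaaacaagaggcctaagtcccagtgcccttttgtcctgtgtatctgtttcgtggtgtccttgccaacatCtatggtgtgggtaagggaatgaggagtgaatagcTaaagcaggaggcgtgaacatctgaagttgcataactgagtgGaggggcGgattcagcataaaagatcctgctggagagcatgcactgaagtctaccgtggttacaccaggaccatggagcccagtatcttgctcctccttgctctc
Cyp2b2: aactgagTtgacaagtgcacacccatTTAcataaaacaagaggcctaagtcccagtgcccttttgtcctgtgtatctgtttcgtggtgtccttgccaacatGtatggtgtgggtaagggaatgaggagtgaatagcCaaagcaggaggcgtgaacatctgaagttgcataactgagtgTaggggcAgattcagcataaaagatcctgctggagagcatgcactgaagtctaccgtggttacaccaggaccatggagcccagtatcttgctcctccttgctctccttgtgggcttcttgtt
Over 283 aligned bases the windows differed at 8 positions, an identity of 97.2%. The window of Cyp2b3 was 72.9% identical to that of Cyp2b1 and 71.3% to that of Cyp2b2, over 251 aligned bases. The enhancer through which CAR is known to act on Cyp2b2 lies farther upstream than these windows reach.

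Cyp2b2 (ENSRNOG00000020775) had 592, 442 and 189 counts in SAM animals 1, 2 and 3, or 54.1, 22.3 and 12.6 CPM. In Sham animals 13, 14 and 15 it had 18, 538 and 46 counts, or 1.14, 27.9 and 2.78 CPM. All SAM livers thus held more than Sham 13 and Sham 15, but Sham 14 held more than SAM 2 and SAM 3. The means were 29.6 ± 21.7 CPM in SAM and 10.6 ± 15 CPM in Sham, and the log2 fold change was 1.46 ± 1.05 with an interval of -0.98 to 3.91 (edgeR adjusted p = 0.802).

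The spread within groups was wide. The highest SAM library held 4.3 times the lowest, and the highest Sham library 24.6 times the lowest. A larger SD of log2 CPM among the Sham livers than that of Cyp2b2 was found for 0.0577% of the 12130 genes tested. The fold change depended on single libraries: the log2 value was 0.70 ± 0.94 without SAM 1 and 3.91 ± 0.77 without Sham 14, and neither passed (edgeR adjusted p = 1 and 0.925).

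The 2B1 entry followed the same libraries at a lower count. It had 88, 48 and 17 counts in SAM animals 1, 2 and 3 (8.04, 2.42 and 1.13 CPM), against 3, 46 and 7 counts in Sham animals 13, 14 and 15 (0.19, 2.39 and 0.423 CPM). SAM 2 and Sham 14 were level, and Sham 13 and Sham 15 were the lowest of the 6. The log2 fold change of 1.87 ± 0.96 had an interval of -0.37 to 4.10 (edgeR adjusted p = 0.802); it was 0.79 without SAM 1 and 3.59 without Sham 14.

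Of the counts of the pair together, the 2B1 entry held 12.9%, 9.8% and 8.25% in the SAM libraries and 14.3%, 7.88% and 13.2% in the Sham libraries, in the same order of animals. The exact (Clopper-Pearson) 95% intervals, which cover counting error only, ran from 10.5 to 15.7% in SAM 1 and from 3.05 to 36.3% in Sham 13, where the pair held 21 counts in all. Each library's interval overlapped that of every other library except for SAM 1 and Sham 14, where Sham 14 ran from 5.82 to 10.4%. Summing both entries to 1 before the fit gave a log2 fold change of 1.51 ± 1.05, likewise not called.

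Cyp2b3 (ENSRNOG00000033164) did not show the wide swings of its relatives. It had 291, 285 and 207 CPM in SAM livers and 220, 316 and 262 CPM in Sham livers, in the order of animals above. The groups covered nearly the same range, and the log2 fold change was -0.03 ± 0.20 (interval -0.50 to 0.45, edgeR adjusted p = 0.973), or -0.11 without SAM 1.

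**Figure D2:**
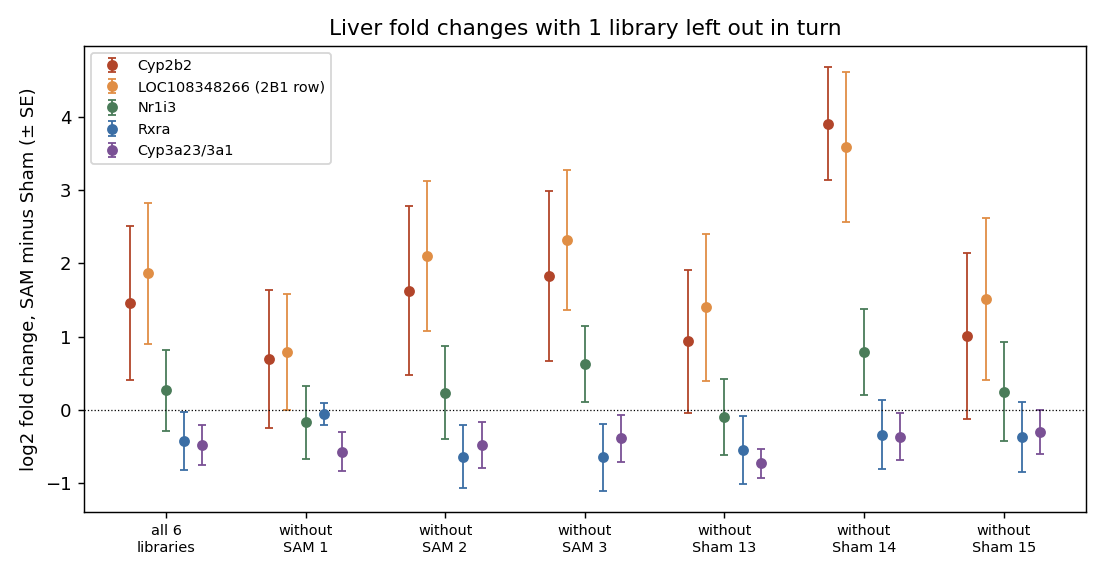
Log2 fold change, SAM minus Sham, of 5 entries in liver with all 6 libraries and with each library left out in turn; bars are ± SE. Without Sham 14 the value of Cyp2b2 was 3.91, and without SAM 1 it was 0.70; Cyp3a23/3a1 lay below 0 in every setting and Rxra was at -0.05 without SAM 1.

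The Cyp3a enzymes, which in rat oxidise steroids and many drugs, were lower on average in SAM livers, and none passed the test. The entry named Cyp3a23/3a1 (ENSRNOG00000032560) bears the symbol of a form known to be induced by dexamethasone, but it carries the RefSeq transcript that RefSeq assigns to Cyp3a2, a form known as male-predominant in adult rats. The entry named Cyp3a2 held 0 to 5 counts per liver library. Which of these genes its reads came from was not settled here. The start windows of both genes in RefSeq (GRCr8, - strand, Cyp3a23-3a1 at chr12:14398754-14399053 and Cyp3a2 at chr12:14343808-14344107) are shown because they share a rare receptor-type motif, given in capitals.
Cyp3a23-3a1: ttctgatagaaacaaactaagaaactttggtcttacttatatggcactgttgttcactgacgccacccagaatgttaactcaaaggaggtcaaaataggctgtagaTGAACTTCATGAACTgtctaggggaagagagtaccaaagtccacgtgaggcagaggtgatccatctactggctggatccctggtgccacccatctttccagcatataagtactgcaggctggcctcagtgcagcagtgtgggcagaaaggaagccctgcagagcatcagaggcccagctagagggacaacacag
Cyp3a2: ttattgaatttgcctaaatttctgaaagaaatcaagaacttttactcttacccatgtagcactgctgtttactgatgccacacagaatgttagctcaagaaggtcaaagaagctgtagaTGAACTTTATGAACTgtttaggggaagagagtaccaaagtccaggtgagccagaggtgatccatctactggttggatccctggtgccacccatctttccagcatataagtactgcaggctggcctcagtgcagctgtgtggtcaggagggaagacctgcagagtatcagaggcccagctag
The capitals mark a direct repeat of the receptor-binding hexamers AGGTCA or AGTTCA with 3 bases between them (DR3), read here on the opposite strand. The repeat began at base -144 in Cyp3a23-3a1 and at base -131 in Cyp3a2, counted from the start used for each window. For Cyp3a2 that start lies inside the RefSeq gene bounds, whose upstream end is 14343886. Over 281 aligned bases the windows were 89.3% identical. On either strand, the DR3 stood in 0.0418% of the 33469 RefSeq start windows of the same length, and among the members' windows and those of Cyp3a2 and Cyp3a62 in these 2 only. Direct repeats with a wider spacing (DR4) and everted repeats (ER6 and ER8) of the same hexamers were searched too. None stood in the members' windows, those of Cyp2b1 and Cyp2b2 included, or in those of Cyp3a2 and Cyp3a62. A single such hexamer, which every DR3 contains, stood in 27.9% of all windows, and, outside this pair, in those of Nr1i2, Por, Cyp3a9, Cyp3a62 and Cyp3a18. These matches describe the letters in the windows and not binding.

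Cyp3a23/3a1 had 575, 511 and 445 CPM in SAM animals 1, 2 and 3, against 438, 813 and 876 CPM in Sham animals 13, 14 and 15. SAM libraries sat close together, just above Sham 13 and well below the other 2 Sham libraries. The means of 510 ± 64.8 CPM in SAM and 709 ± 236 CPM in Sham gave a log2 fold change of -0.48 ± 0.27 with an interval of -1.10 to 0.15 (edgeR adjusted p = 0.802). Without SAM 1 it was -0.57, and with single libraries left out it ranged from -0.73 without Sham 13 to -0.30 without Sham 15.

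The 2 entries named Cyp3a9 carry different RefSeq transcripts. ENSRNOG00000046643, with that of Cyp3a9 itself, known as female-predominant in rat liver, had 271, 339 and 343 CPM in SAM and 203, 535 and 561 CPM in Sham, in the order of animals above. As for Cyp3a23/3a1, Sham 13 was lowest and the other Sham livers highest, and the log2 fold change was -0.45 ± 0.36 (interval -1.28 to 0.39, edgeR adjusted p = 0.802). ENSRNOG00000001379 carries the transcript of Cyp3a62. It had 30, 46 and 13 counts in SAM livers and 28, 35 and 46 counts in Sham livers, and its log2 fold change was -0.11 ± 0.44 (interval -1.15 to 0.92), or -0.38 without SAM 1.

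Cyp3a18 (ENSRNOG00000000969), a steroid-oxidising form, had 29.6, 20.6 and 13 CPM in SAM livers and 22.4, 27.5 and 24.9 CPM in Sham livers. SAM livers spread on both sides of the Sham livers. The log2 fold change was -0.25 ± 0.29 (interval -0.91 to 0.42, edgeR adjusted p = 0.818), and -0.56 without SAM 1.

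Several members shared their order of libraries. Sham 13 was the lowest Sham liver for 9 of the 10 entries, the exception being Nr1i2, and the lowest for 35.3% of all genes tested. SAM 1 was the highest SAM liver for 8 of the 10 entries, Rxra and Cyp3a9 (ENSRNOG00000046643) being the exceptions, and the highest for 41.6% of all genes. Entries of one family are not independent of each other, so these counts are a description of the libraries.

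By the root mean square difference of centred log2 CPM over the 6 liver libraries, the pattern nearest to Cyp2b2 was that of the 2B1 entry, at 0.522, where Cyp2b2 itself deviated from its own mean by 1.9. Sstr3 was at 0.899, and Eln and Ccdc92 were at 1.24. Those nearest to the 2B1 entry were Sstr3 at 0.508, Cyp2b2, Eln at 0.825, Nfe2 at 0.879 and Rhbg at 0.904. Rhbg, an ammonium transporter, is one of 8 pericentral hepatocyte markers, which together summed to 4300 to 7210 CPM in SAM livers and 4390 to 7260 CPM in Sham livers. Cyp2e1 alone held 3310 to 6430 CPM, so the sum says little about the low markers. None of the 7 tested was called and 4 were positive, with Rhbg at 1.3 and overlapping groups. Tbx3 was lower in every SAM liver than in any Sham liver (-0.99). The 8 periportal markers summed to 6730 to 8790 CPM in SAM and 6420 to 7140 CPM in Sham. Of these, 6 were positive and none was called, and Ass1 and Hal were higher in every SAM liver than in any Sham liver. The part of zonation in the Cyp2b values was not tested, and in bulk liver fewer cells with a transcript and less transcript per cell cannot be told apart.

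For Nr1i3, whose own deviation was 0.784, the nearest genes were Mogat2 at 0.266, Efhd1 at 0.323, Pstpip1 at 0.325, Dnah1 at 0.334 and Ddah2 at 0.383. For Nr1i2, with an own deviation of 0.109, they were Pan2, Chmp1a, Dgka, Dus1l and Rfc5, at 0.0209 to 0.0379. Among the members, Cyp3a23/3a1 and Cyp3a9 (ENSRNOG00000046643) lay 0.271 apart, and Nr1i3 and Cyp2b2 1.38 apart. This measure also counts the size of the swings, and the own deviation of Cyp2b2 was 1.9. From highest to lowest, the livers ran SAM 1, Sham 14, SAM 2, Sham 15, SAM 3 and Sham 13 for Nr1i3. For Cyp2b2 the order was the same except that SAM 3 came before Sham 15.

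The other genes of the pathway were taken from 9 lists of CAR and PXR targets, partners and sentinels of neighbouring pathways. Of 111 listed symbols 93 were found and 81 entries were tested in liver, where Nr3c1 has separate entries that are each counted. None was called. Of the 81, 42 had a positive and 39 a negative fold change with a median of 0.02, beside 6333 positive and 5797 negative and a median of 0.02 over all 12130 genes. For 6 of them every SAM library lay above every Sham library, and for 6 every one below. The corresponding shares over all genes were 5.19% and 5.63%. Of the Cyp2b and Cyp3a relatives listed, Cyp2b12, Cyp2b15, Cyp2b21 and Cyp3a2 were found and passed the filter in no tissue, and the first 3 had no count in any liver library.

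**Figure D3:**
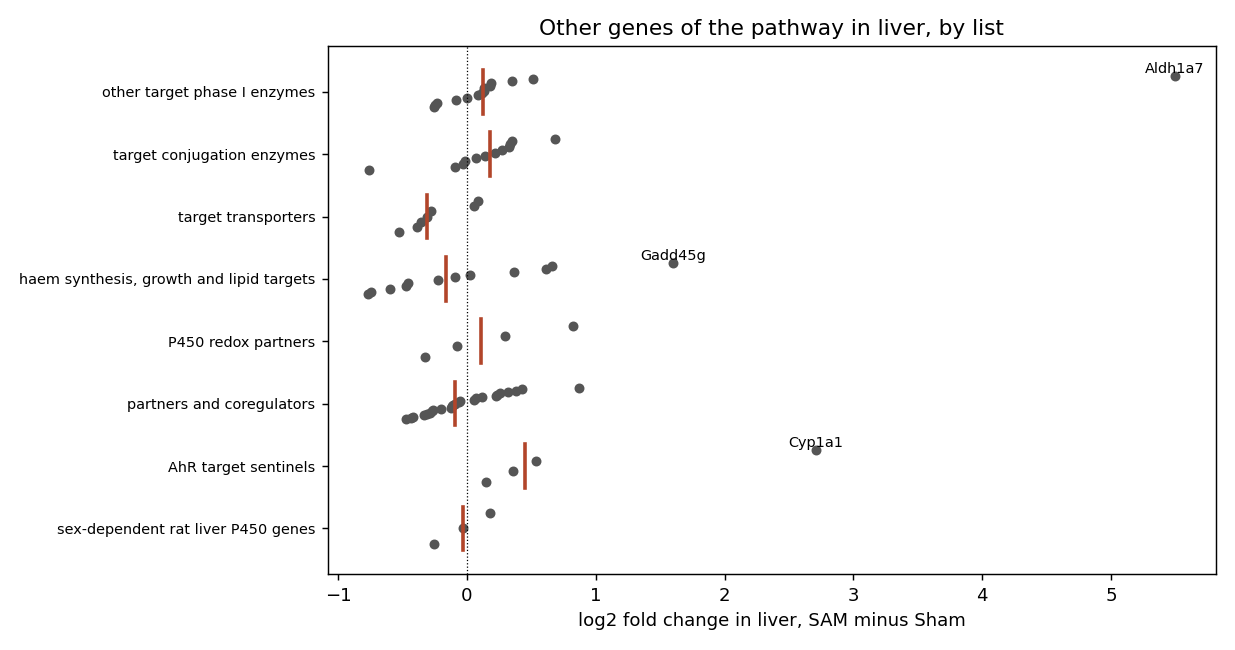
Log2 fold change in liver, SAM minus Sham, of each tested entry of 8 lists. Red lines are list medians, and genes beyond 1 in either direction are named. Most genes lie within 1 of 0; Aldh1a7 at 5.50, Cyp1a1 at 2.71 and Gadd45g at 1.60 stand outside.

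Among 14 tested phase I targets, 10 were positive, with a median of 0.12; without SAM 1 these were 8 and 0.058. Aldh1a7, an aldehyde dehydrogenase of the phenobarbital-responsive class in rat, had 73, 117 and 115 CPM in SAM livers and 3.85, 1.04 and 1.93 CPM in Sham livers. It did not share the high Sham 14 of Cyp2b2, having its lowest level there. Its log2 fold change of 5.50 ± 0.48 had an edgeR adjusted p of 0.0518 and was called without SAM 1, at 5.70. With any other single library left out, neither it nor any other liver gene was called. The lowest edgeR adjusted p of all liver genes then ran from 0.0646 without Sham 13 to 0.967 without Sham 15. Reads of Aldh1a7 and its close paralog Aldh1a1 may be split.

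The other phase I targets named had smaller fold changes. Cyp2c6v1, another phenobarbital-responsive P450, averaged 1710 CPM in SAM livers and 1610 CPM in Sham livers (log2 fold change 0.09 ± 0.21, or -0.06 without SAM 1). The carboxylesterases Ces2c and Ces2g were at 0.51 ± 0.32 and -0.25 ± 0.16, and neither passed the test.

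Of 12 tested conjugation enzymes, 8 were positive, with a median of 0.18, or 0.034 without SAM 1. Gstm1, a glutathione transferase, had 1370, 973 and 836 CPM in SAM livers against 768, 785 and 433 CPM in Sham livers, with no overlap (log2 fold change 0.68 ± 0.29, edgeR adjusted p = 0.802, or 0.45 without SAM 1). Gsta2, Gsta1 and the sulfotransferase Sult1a1 were at 0.35, 0.27 and 0.34, with overlapping groups, and at 0.02, 0.11 and 0.16 without SAM 1. Of 7 transporters, 5 were negative, with a median of -0.31: the hepatic uptake carriers Slco1a4 and Slco1b2 were at -0.31 ± 0.22 and -0.36 ± 0.25, the efflux pump Abcg2 at -0.38 ± 0.21 and the drug efflux pump Abcb1a at 0.05 ± 0.18. Without SAM 1 the median was -0.12, Slco1b2 was at -0.12 and Abcg2 at -0.25.

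In the list of haem synthesis, growth and lipid targets, 5 of 12 were positive, with a median of -0.16; without SAM 1 these were 6 and 0.066. Alas1, the first enzyme of haem synthesis, was at -0.23 ± 0.21, or -0.36 without SAM 1. The glucose-releasing enzyme G6pc, which both receptors are known to repress in mouse, had 176, 167 and 237 CPM in SAM livers and 260, 334 and 284 CPM in Sham livers with no overlap (log2 fold change -0.60 ± 0.19), and Pck1 of the same pathway was at -0.75 ± 0.48. Gadd45b, a stress gene that CAR is known to induce in mouse, was at -0.77 ± 0.32 and its relative Gadd45g at 1.60 ± 0.51, or 0.72 without SAM 1. Myc was at 0.61 ± 0.30 and the cyclin Ccnd1 at -0.46 ± 0.27, or -0.30 without SAM 1. None of them passed the adjusted test.

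The P450 redox partners were 2 positive and 2 negative, or 1 and 3 without SAM 1. Cyb5r3, which reduces cytochrome b5, had 626, 262 and 379 CPM in SAM livers and 214, 260 and 244 CPM in Sham livers (0.82 ± 0.30, or 0.42 without SAM 1). The outer mitochondrial membrane form Cyb5b was lower in each SAM liver than in any Sham liver, at 214, 234 and 232 CPM against 288, 274 and 290 CPM (-0.32 ± 0.13), and microsomal Cyb5a was at 0.30 ± 0.28, a sign that turned to -0.10 without SAM 1. The lowest edgeR adjusted p of these 3 genes was 0.802.

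Of 25 entries of receptor partners and coregulators, 10 were positive, with a median of -0.09. Without SAM 1, 14 were positive and the median was 0.013. The liver transcription factor Foxa2 had 61.5, 37.1 and 51.9 CPM in SAM livers, against 24.3, 24 and 33.9 CPM in Sham livers, with no overlap (0.87 ± 0.24, edgeR adjusted p = 0.802). The chaperone Hsp90ab1, of the class that holds CAR in the cytoplasm, was at -0.33 ± 0.17. Cebpa was at 0.42 ± 0.24, or 0.14 without SAM 1, and the oxysterol receptor Nr1h3 at 0.26 ± 0.16, or 0.13 without SAM 1.

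All 4 tested AhR targets were positive, with a median of 0.45. Cyp1a1 had 30.3, 5.64 and 11.4 CPM in SAM livers and 1.77, 1.71 and 3.68 CPM in Sham livers, with no overlap (log2 fold change 2.71 ± 0.64, edgeR adjusted p = 0.802, or 1.83 without SAM 1). Cyp1a2 and Nqo1, at 0.54 ± 0.31 and 0.36 ± 0.26, overlapped, and Cyp1a2 was at 0.18 without SAM 1. Because the Cyp3a forms depend on sex in rat liver, sex-dependent genes were read too. Cyp2c12, known as female-specific, had 4180, 5540 and 4880 CPM in SAM and 5690, 6030 and 5720 CPM in Sham. Cyp2c11, known as male-specific, held 0 to 4 counts in any liver library. Every liver library thus had the female-type pattern of this pair, while the labels leave sex unstated. Of the 3 sex-dependent genes tested 1 was positive, and none was called.

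In the tissues other than liver, most members were at or near 0. The filter on low counts was passed by 4 of the 10 entries in brain, by 3 in thymus and by 2 in spleen. No count in any of the 6 libraries was found for 5 entries in brain (a limit of 0.0296 CPM over the tissue, from 3 counts), 4 entries in thymus (0.0278 CPM) and 5 entries in spleen (0.0292 CPM). In the 9 Sham libraries of brain, thymus and spleen together, Nr1i3, Cyp2b2, Cyp2b3, Cyp3a23/3a1 and Cyp3a18 were all at 0. Against a floor of 3 counts over those 9 libraries, 0.0185 CPM of raw library totals, Nr1i3 was at least 659-fold higher in Sham liver. By the same floor Cyp2b2 was at least 602-fold higher, or at least 111-fold without Sham 14, Cyp3a18 at least 1420-fold, Cyp2b3 at least 15100-fold and Cyp3a23/3a1 at least 40300-fold. Nr1i2 had 21 counts in those 9 libraries, and at most 7 in any one, in the thymus of Sham 15. In the thymus of SAM animals 1, 3 and 5, Cyp3a18 had 2, 1 and 1 counts and Cyp3a23/3a1 had 0, 2 and 1. In spleen, Cyp3a23/3a1 had 1 count in SAM 5 and Cyp2b2 had 1 in SAM 1. Nr1i3 and Cyp2b3 had none in any SAM library outside liver. None of these 5 entries passed the filter outside liver.

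Rxra and Por were transcribed in all 4 tissues, so their tissue contrast could be tested over the 12 Sham libraries. On raw library totals, Rxra stood at 194 ± 29 CPM in Sham liver, 58 ± 7.89 in spleen, 34.9 ± 2.94 in thymus and 18.2 ± 3.05 in brain, and none of these ranges overlapped. Por stood at 134 ± 28.2 CPM in Sham liver, above 95.4 ± 4.7 in brain, 91.7 ± 7.34 in thymus and 88.4 ± 8.83 in spleen. The ranges of the last 3 tissues overlapped. Liver over the mean of the other tissues gave a log2 difference of 4.13 ± 0.11 for Rxra (edgeR adjusted p = 1.09e-12) and 2.14 ± 0.11 for Por (7.1e-10). With joint TMM scaling, 36.3% of 17204 genes were called higher and 40.3% lower in liver. That fit took the libraries as independent, although animal numbers recur across tissues. With animal number as a replicate block, 6097 genes were called higher and 6611 lower.

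The size of that contrast depended on the scaling. On raw library totals 2482 genes were higher and 12484 lower, against 6252 and 6940 with TMM, and the median of all genes was -1.82 in place of -0.25. Rxra was then at 2.55 ± 0.11 and Por at 0.55 ± 0.11, both still called. The other members passed the filter through liver or through only some of the tissues and had to differ, so no test is given for them.

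**Figure D4:**
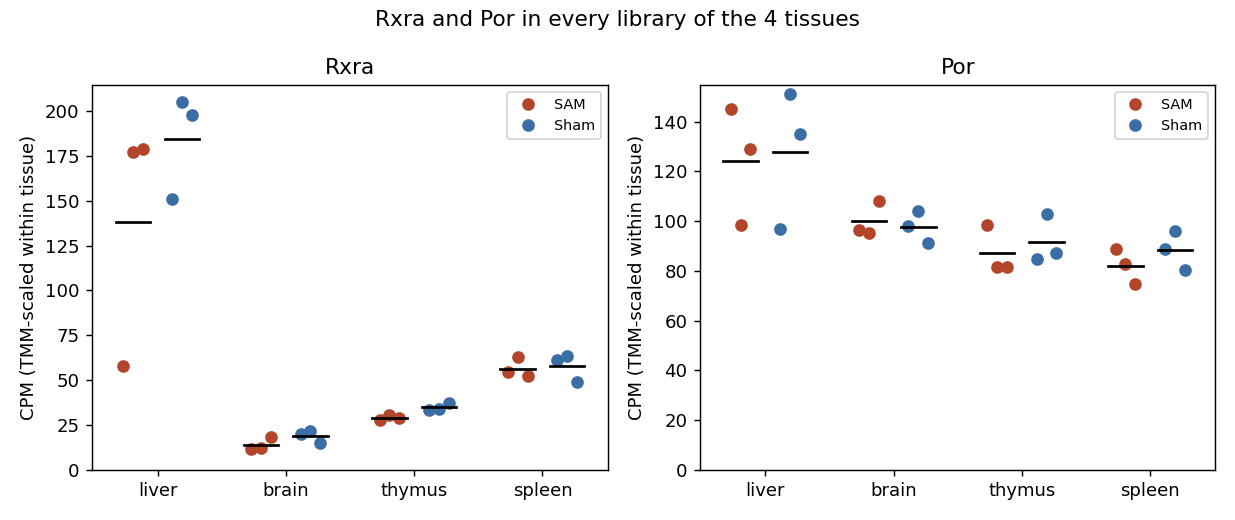
Rxra and Por in each of the 24 libraries, SAM in red and Sham in blue, in CPM scaled by TMM within each tissue (levels of different tissues are therefore on separate scales); black lines are means of 3. Rxra in thymus is the panel's only pair of groups without overlap, at 27.7 to 30.5 CPM in SAM and 33.4 to 37.3 CPM in Sham.

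Between SAM and Sham animals, no gene was called in brain (0% of 15126), thymus (0% of 15036) or spleen (0% of 14530), with 3108, 922 and 597 genes at an unadjusted p under 0.05. Rxra was lower on average in SAM animals in each of the 4 tissues, but the liver value was -0.05 without SAM 1 and the spleen value turned positive, up to 0.030, without SAM 5 or without Sham 15. In thymus it had 27.7, 30.5 and 28.9 CPM in SAM animals 1, 3 and 5, against 33.4, 33.9 and 37.3 CPM in Sham animals 14, 15 and 17, so every SAM library lay below every Sham library. That held for 6.96% of the thymus genes tested. The 4 epithelial markers of the cholangiocyte list (Krt7, Krt19, Epcam and Sox9) were all negative in thymus, with sums of 170 to 199 CPM in SAM and 288 to 314 CPM in Sham, and the 4 stellate cell markers summed to 45 to 62.8 CPM in SAM and 65.3 to 71.3 CPM in Sham. None of these 8 was called, and their part in the Rxra value was not tested. The log2 fold change was -0.26 ± 0.08 with an interval of -0.46 to -0.07 (edgeR adjusted p = 0.678), and it stayed between -0.30 and -0.21 with single libraries left out.

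In brain, Rxra had 11.3, 12 and 18 CPM in SAM animals 1, 2 and 3 and 19.8, 21.3 and 14.9 CPM in Sham animals 13, 15 and 16. SAM 3 and Sham 16 crossed over, and the log2 fold change was -0.45 ± 0.22 (interval -0.97 to 0.08, edgeR adjusted p = 0.285). Without SAM 3 it was -0.68 ± 0.16 and called (edgeR adjusted p = 0.0119), in a comparison that then called 5896 genes of 15493. Without SAM 1 and SAM 2 together, which left SAM 3 as the only SAM library, it was -0.05. In that tissue the summed neuron and glia markers given above were lower in each SAM library than in any Sham library. Of the 5, 1 was positive and none was called, and their part in the Rxra value was not tested. Among all brain genes tested, 1842 of 15126 had every SAM library below every Sham library. In spleen Rxra averaged 56.3 ± 5.63 CPM in SAM and 58 ± 7.86 CPM in Sham (-0.04 ± 0.12).

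Por overlapped between the groups in each tissue. It averaged 100 ± 7.26 CPM in SAM brain and 97.6 ± 6.22 in Sham brain, 87.2 ± 9.66 in SAM thymus and 91.8 ± 10.1 in Sham thymus, and 82.1 ± 6.93 in SAM spleen and 88.3 ± 7.79 in Sham spleen. The log2 fold changes were 0.04 in brain, -0.07 in thymus and -0.11 in spleen, with intervals that together ran from -0.31 to 0.25. The 2 entries named Cyp3a9 were the only Cyp members tested outside liver. In brain, ENSRNOG00000046643 had 72, 63 and 33 counts in SAM and 62, 64 and 64 in Sham (-0.03 ± 0.20), and ENSRNOG00000001379 had 39, 28 and 33 in SAM and 32, 42 and 55 in Sham (-0.16 ± 0.27). In thymus, ENSRNOG00000046643 had 9, 5 and 13 counts in SAM and 14, 16 and 15 in Sham (-0.50 ± 0.40). None of the 3 was called.

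**Figure D5:**
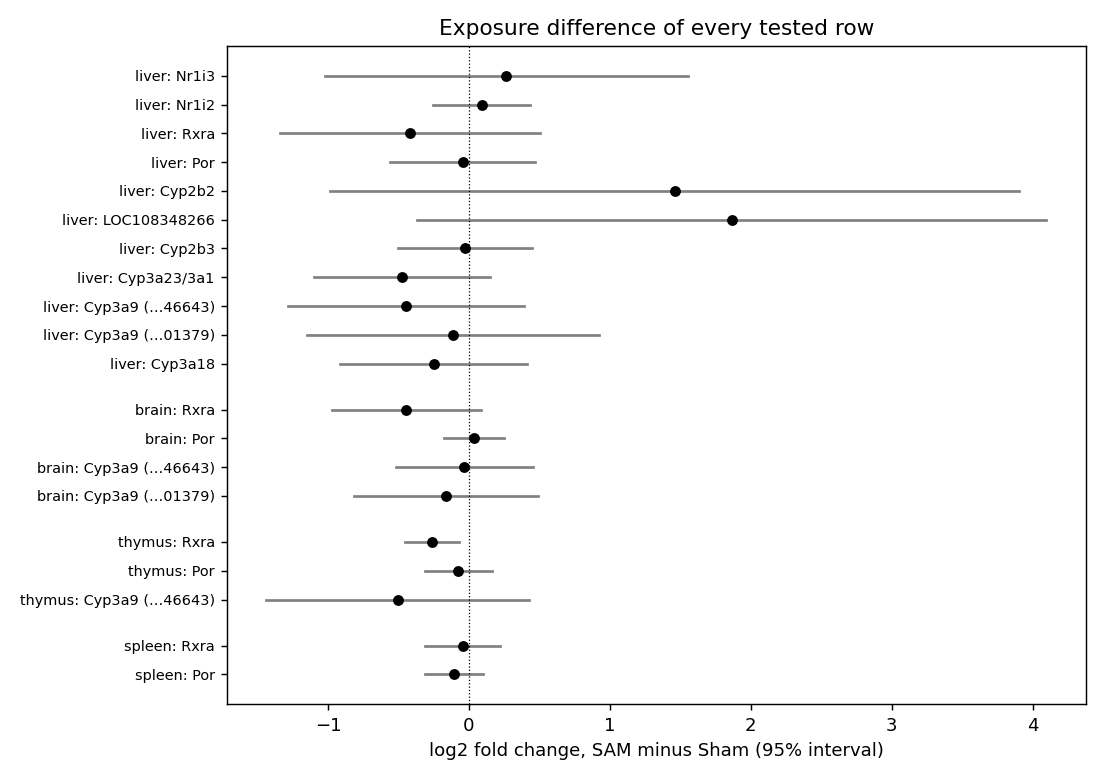
Log2 fold change, SAM minus Sham, of each entry that passed the filter on low counts, by tissue, with its 95% interval from the edgeR fit of that tissue. The intervals of Cyp2b2 (-0.98 to 3.91) and LOC108348266 (-0.37 to 4.10) are the widest, and Rxra in thymus (-0.46 to -0.07) has the only interval that leaves out 0, before adjustment over all genes.

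Whether the exposure difference in liver departed from the mean of the other 3 tissues was tested in 1 fit over all 24 libraries. For Rxra the difference of differences was -0.16 ± 0.32 (edgeR adjusted p = 0.959) and for Por -0.01 ± 0.17 (edgeR adjusted p = 1). Of 17623 genes, 0.00567%, or 1 gene, was called: Dusp6, a phosphatase of ERK kinases, at 1.36 ± 0.20 (edgeR adjusted p = 0.0266), named here after its value was seen. With animal number as a replicate block it was at 1.40 and no gene was called (edgeR adjusted p of Dusp6 = 0.448). Its call was also lost without number 1, 5, 13, 14, 15, 16 or 17, each left out alone, at 1.07 to 1.51. The other members have no counts in at least 1 tissue group or failed a tissue's filter, and the contrast is not given for them.

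The pathway lists outside liver held no called gene either. Of 55 listed entries tested in brain, 39 were positive, with a median of 0.13 beside 0.01 over all genes. Those with the lowest p were the AhR-responsive Cyp1b1, with 7.77, 6.3 and 7.61 CPM in SAM and 2.51, 2.85 and 4.01 CPM in Sham (log2 fold change 1.20 ± 0.22), Myc at 1.23 ± 0.25, the coactivator Ncoa3 at 0.42 ± 0.10, Gstm1 at 0.26 ± 0.08 and the efflux pump Abcc2 at -0.31 ± 0.12.

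In thymus, 19 of 62 were positive, with a median of -0.09 beside -0.0014 over all genes. The retinal dehydrogenase Aldh1a1 had 22.2, 20.2 and 18.6 CPM in SAM and 51.2, 99.4 and 38.4 CPM in Sham (-1.63 ± 0.32, edgeR adjusted p = 0.368). The epithelial and stellate cell markers given above were lower in the same SAM libraries, and their part in the Aldh1a1 value was not tested. Abcb1a was at -0.42 ± 0.18. Nqo1, the growth factor receptor Egfr and the haem-binding protein Pgrmc1 followed at -0.36, -0.51 and -0.11. In spleen, 23 of 55 were positive, with a median of -0.018 beside 0.0028. Myc had 105, 108 and 114 CPM in SAM against 132, 137 and 127 CPM in Sham (-0.28 ± 0.06, edgeR adjusted p = 0.967); Gsta1 was at -0.28, the epoxide hydrolase Ephx1 at -0.30, and the coregulators Med1 and Ncor1 at 0.23 and 0.16.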

How the data were processed

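RNA was purified on RNeasy columns and made into stranded TruSeq mRNA libraries, per the labels' protocols. STAR 2.2.1 and the build rn6 are named, with no role, in the submitters' processing notes. No counter, strand setting or annotation is named there, which leaves values of overlapping genes and close copies uncertain. The deposited values are unnormalized counts, whole numbers by gene, in 1 table of 24 columns; tissue and animal number in the column name identified each sample, since the prefix SAM heads them all. No 2 libraries of a group were copies: chi-square per degree of freedom between them was 5.95 to 193 (24 pairs).

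Each tissue was fitted alone with edgeR 4.0.16 in R 4.3.3 (TMM, filterByExpr, quasi-likelihood test, Benjamini-Hochberg at 0.05 over all genes tested); the procedure was checked on simulated counts. Intervals are 95% from that fit. Joint fits covered the tissue contrasts. Likeness used log2 CPM with a prior count of 2. A gene that the likeness rule names is not reported here. Start windows came from RefSeq and were aligned with Biopython 1.88. Their starts need not be the outer ends of the RefSeq genes. The Por window, at chr12:26635760-26636059, lies inside gene bounds of 26587674 to 26655612. All members are named; of the lists, liver shows up to 20 genes of lowest p with at least 3 per list, other tissues 5. The members and lists were chosen with earlier results of these data known. Alternatives were RLE scaling, raw totals, DESeq2 1.42.0, no filter, a robust fit, no mitochondrial genes, summed copies, a replicate block and each library left out.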

Additional observations from a re-analysis of the deposited data

Results flagged for a closer look

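In the fit without a replicate block, the exposure difference of Dusp6 in liver departed from the mean of the other tissues. The log2 difference was 1.36 ± 0.20 (edgeR adjusted p = 0.0266). The call was kept with RLE scaling (edgeR adjusted p = 0.0357) and on raw library totals (edgeR adjusted p = 0.0181). It was lost with animal number as a replicate block (edgeR adjusted p = 0.448). With single animal numbers left out, it was kept in 2 of 9 settings.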

How the results depend on the processing

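No member changed its call in liver, thymus or spleen under any alternative run; in brain Rxra was called without SAM 3. The count of called genes in liver was 1 with RLE scaling, 2 with DESeq2 and 1 without the filter, and ranged from 0 to 1 with single libraries left out. In brain it was 503 with DESeq2 and 0 to 5896 with single libraries left out, the highest without SAM 3. In thymus it was 100 with DESeq2, 3 without the filter and 3 with the robust fit, and 0 with any single library left out; in spleen it was 7 with DESeq2 and 0 to 1. The cause was not tested. The liver interaction called 1 gene, 0 with animal number as a replicate block, and 0 to 511 with single animal numbers left out, the highest without number 2; the liver contrast in Sham called 13192 genes and 12238 to 13050 with single animal numbers left out.

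Some small fold changes turned sign. Nr1i2 in liver was -0.062 and Cyp3a9 (ENSRNOG00000046643) in brain 0.043 on raw totals; Cyp3a9 (ENSRNOG00000001379) in brain was 0.16 without SAM 1 and SAM 2. Por in the interaction was 0.027 with RLE and 0.012 with the replicate block. With single libraries left out, the ranges in liver were -0.17 to 0.79 for Nr1i3, -0.21 to 0.10 for Por, -0.14 to 0.12 for Cyp2b3, -0.38 to 0.25 for Cyp3a9 (ENSRNOG00000001379) and -0.56 to 0.0080 for Cyp3a18. In brain they were -0.029 to 0.083 for Por and -0.13 to 0.11 for Cyp3a9 (ENSRNOG00000046643), in thymus -0.17 to 0.015 for Por and in spleen -0.15 to 0.030 for Rxra. In the interaction they were -0.43 to 0.14 for Rxra and -0.19 to 0.14 for Por.

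SAM and Sham animals share no numbers, so no pairing applied within a tissue. Across tissues the correlation of deviations was -0.01 to 0.19 over 25 same-numbered pairs, over 0.1 in 11, and a library correlated best with its own number in 34 of 50 cases; the labels do not say that a number marks 1 rat. Below 1 CPM on raw library totals, values rest on at most 20.1 counts, and 3 libraries a group leave wide intervals for Cyp2b2.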

Other observations

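Ratios of raw counts within a library, chosen after their values were seen, are given with no test. Cyp2b2 counts per Nr1i3 count were 2.5, 1.54 and 2.05 in SAM animals 1, 2 and 3 and 0.234, 1.5 and 0.245 in Sham animals 13, 14 and 15. Sham 14 was thus close to SAM 2 in this ratio, and Sham 13 and Sham 15 were far below. Cyp3a23/3a1 counts per Nr1i2 count were 5.18, 5.47 and 4.31 in the SAM livers and 4.4, 8 and 10 in the Sham livers. Erythroid markers (Hbb, Hba-a2, Alas2 and Slc4a1) summed to 483 to 1130 CPM in SAM livers and 345 to 441 CPM in Sham livers without overlap; the globin genes and Alas2 were higher in every SAM liver than in any Sham liver and Slc4a1 lower, at a log2 fold change of -0.63. None was called, and their part in any member's value was not tested.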
